A study of Mus musculus with 4 samples.

Results

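Ccl3, Ccl6, Ccl9 and Cxcl12 are the 4 chemokine genes described here. They were looked up by symbol among the array spots that the platform's annotation assigns to 1 gene, which gave 8 spots of 18511, and 4 genes of 10225. Ccl3 had 1 spot, Ccl6 had 1, Ccl9 had 2 and Cxcl12 had 4. The 4 genes were picked with their ratios on the AT-EAE arrays already known, so the ratios below are a description.

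The tissue was spinal cord, taken from adult SJL/J females. AT-EAE stands for adoptive-transfer experimental autoimmune encephalomyelitis, in which myelin-reactive T cells are given to a recipient mouse and inflame its central nervous system. The control mice are given as SJL/J mice of the same sex, with no further treatment named in the labels. Cords of 2 mice were pooled into an RNA extract, and 4 extracts represented each group. The first control array compared control extracts 1 and 2, and the second control array compared control extracts 3 and 4. The first AT-EAE array compared AT-EAE extracts 1 and 2, and the second AT-EAE array compared AT-EAE extracts 3 and 4. The plots call the first and the second array of a group array 1 and array 2.

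A value is thus the log ratio between 2 pools of like mice, for 1 spot on 1 array. It is not a ratio of AT-EAE to control, and no level of a chemokine in either group can be read from it. Base 2 was assumed for the logarithm, whose base is not given in the sources used here. No fold is stated for this reason. Which channel was the numerator is not given either. A negative value on one array and on another therefore need not mean the same dye, and the pool with more of a transcript cannot be named. In a bulk extract, fewer cells of a type and less RNA per cell cannot be told apart.

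Chemokines are small secreted proteins that set the course of migrating leukocytes through receptors coupled to G proteins. They are named by the spacing of the first cysteines, CC or CXC. In inflamed cord, CC chemokines from microglia, macrophages and T cells draw monocytes and T cells into the tissue. Cxcl12 is a constitutive CXC chemokine of vessel, stromal and glial cells, and it holds leukocytes near vessels and guides precursor cells through Cxcr4.

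The sequences next to each gene are shown because 3 of the genes are neighbours and the fourth stands apart. In the GRCm38.p6 annotation, Ccl9, Ccl6 and Ccl3 follow each other in this order with 0 protein-coding genes between Ccl9 and Ccl6, and 0 between Ccl6 and Ccl3. The lines give the 120 bases before each RefSeq gene start, 5′ to 3′ on the gene's strand, from the RefSeq promoters of GRCm38.p6. Capitals mark every match to TATAA, to the core GGAAGT bound by ETS factors such as the myeloid factor PU.1, or to the GC box core CCGCCC, on either strand. Ccl3 lies at chr11:83649379-83649498 on the minus strand, Ccl6 at chr11:83593088-83593207 on the minus strand, Ccl9 at chr11:83578637-83578756 on the minus strand, and Cxcl12 at chr6:117168415-117168534 on the plus strand.
Ccl3: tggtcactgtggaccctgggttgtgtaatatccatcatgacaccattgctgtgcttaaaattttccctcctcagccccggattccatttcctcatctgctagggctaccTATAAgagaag
Ccl6: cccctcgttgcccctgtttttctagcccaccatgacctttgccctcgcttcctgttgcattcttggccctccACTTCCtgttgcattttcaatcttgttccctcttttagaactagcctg
Ccl9: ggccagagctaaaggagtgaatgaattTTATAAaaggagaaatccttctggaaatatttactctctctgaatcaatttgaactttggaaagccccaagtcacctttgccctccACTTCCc
Cxcl12: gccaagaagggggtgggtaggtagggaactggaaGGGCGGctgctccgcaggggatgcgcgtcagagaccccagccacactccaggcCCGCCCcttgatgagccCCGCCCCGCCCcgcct

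Ccl6 and Ccl9 shared the longest run of any of the 6 pairs, the 13 bases GCCCTCCACTTCC. It ends in the GGAAGT match on the opposite strand. Counting back from the gene start at -1, the run lies at -55 to -43 in Ccl6 and at -14 to -2 in Ccl9. Among 32851 promoter windows of this length, 4 held the run, and besides Ccl6 and Ccl9 these belonged to Eif5 and Satb1. The run was picked for being the longest shared, so this count is a description and its rarity was not tested. The other pairs shared runs of 6 or 7 bases. The GGAAGT core matched in Ccl6 and Ccl9 and in 11.6% of all windows, and TATAA matched in Ccl3 and Ccl9 and in 11.8%. In Ccl9 the TATAA match lies on both strands, in overlapping letters. CCGCCC matched at 4 places in Cxcl12, of which a pair overlaps by 1 base, and in 26.5% of all windows. A match is a match of letters, and the arrays hold no measurement of binding.

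The first question was which of the 8 spots had a value in which cords. Of the 32 possible values, 16 were deposited. The first control array had 6, the second control array had 2, the first AT-EAE array had 5 and the second AT-EAE array had 3. Over all 28704 spots of the platform, a value was present for 73.6% on the first control array, 64.7% on the second control array, 54.5% on the first AT-EAE array and 37.6% on the second AT-EAE array. The counts of the 8 spots did not follow that order, with 2 of 8 on the second control array as the lowest. Shares of 62.5% and 37.5% on the AT-EAE arrays were close to those of all spots. The reason for an empty cell is not given in the sources used here, so an empty cell is not a measurement of low expression.

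**Figure D1:**
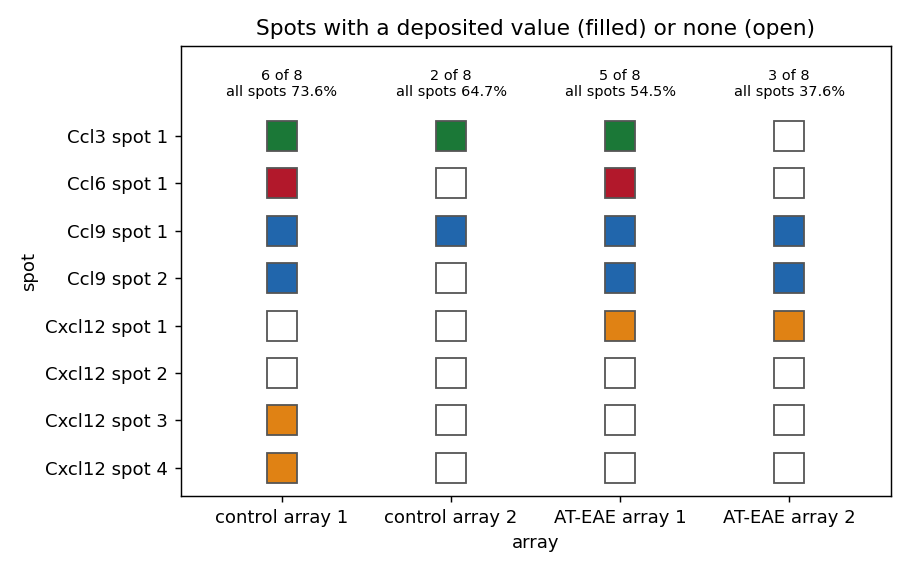
Each row is 1 of the 8 spots of Ccl3, Ccl6, Ccl9 and Cxcl12, each column 1 of the 4 arrays, and a filled square is a deposited value. The numbers above each column give the count of these spots with a value and the share over all 28704 spots. Ccl9 spot 1 is filled in every column, and the Cxcl12 spots filled on the first control array are open on both AT-EAE arrays.

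Ccl9 is the myeloid CC chemokine also known as macrophage inflammatory protein 1 gamma, a ligand of Ccr1. It was the best covered of the 4 genes, with 7 of 8 possible values. Its spot 1 (platform spot 13824) had a value on all 4 arrays, as did 35.3% of all spots. Its spot 2 (platform spot 24133) had a value on all arrays except the second control array, a pattern found for 0.700% of all spots.

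Ccl3, or macrophage inflammatory protein 1 alpha, is a ligand of Ccr1 that recruits monocytes and T cells. Its only spot (platform spot 1189) had a value on both control arrays and the first AT-EAE array, as did 15.6% of all spots. Ccl6, a CC chemokine of macrophages that acts through Ccr1, had a value for its only spot (platform spot 9513) on the first control array and the first AT-EAE array. This pattern occurred for 1.72% of all spots.

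Cxcl12 was represented by different spots in the groups. Spot 1 (platform spot 9729) had a value on both AT-EAE arrays and on neither control array. Spots 3 and 4 (platform spots 18104 and 23731) had a value on the first control array alone, and spot 2 (platform spot 13362) had none. No Cxcl12 spot had a value on the second control array. Over the whole platform, 56 spots or 0.195% had the pattern of Cxcl12 spot 1, and 7.84% had that of spots 3 and 4. Of 4451 genes with 2 or more spots and a value in both groups, 19 genes, Cxcl12 among them, had no spot with a value in both. These are 0.427% of such genes. A control and an AT-EAE ratio of Cxcl12 therefore come from different spots, and they were not compared.

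The second question was how far the pools of an array differed for each gene. The yardstick on each array was the standard deviation (SD) estimated from the median absolute deviation over all spots. The control arrays had SDs of 0.21 and 0.26, the AT-EAE arrays 0.20 and 0.36. The SD between spots of the same gene, an ordinary SD pooled over genes, was 0.24, 0.28, 0.24 and 0.36 in the same order. Spots of the same gene thus differed about as widely as all spots of the array, although the SDs were estimated in different ways. Each array was measured once, and the array medians lay between -0.07 and 0.01.

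Ccl6 had the ratios farthest below the array median. They were -0.59 on the first control array and -0.49 on the first AT-EAE array. In SDs from the respective medians these are -2.80 and -2.57, and 2.31% and 4.00% of the spots were lower. For this spot, the ratio on the first AT-EAE array was thus smaller in size than that on the first control array. The gap was 0.09, less than the SD between spots of a gene, which was 0.24 on both arrays.

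Ccl3 lay below the median on every array where it had a value, and at most -1.17 SDs from it. Its ratios were -0.18 on the first control array, -0.11 on the second control array and -0.22 on the first AT-EAE array. The shares of spots that were lower were 21.3%, 34.3% and 16.9%, respectively. All 3 values are smaller in size than the SD between spots of a gene on their array.

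Ccl9 spot 1 read 0.06 on the first control array, -0.38 on the second control array, -0.40 on the first AT-EAE array and -0.04 on the second AT-EAE array. The middle pair were low for their arrays, at -1.5 and -2.10 SDs from the median. The outer pair lay 0.32 and 0.10 SDs above it, so each group held 1 array with a shifted ratio and 1 near the centre. Ccl9 spot 2 read 0.15 on the first control array, -0.08 on the first AT-EAE array and 0.64 on the second AT-EAE array. The last was the highest value of any of the 8 spots, 1.95 SDs above the median with 95.9% of spots lower.

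Only 1 control array, the first, held a value for both spots of Ccl9. The spots lay close together on that array and farther apart on the AT-EAE arrays. They differed by 0.08 on the first control array, where the median difference over 2463 genes with 2 measured spots was 0.19. They differed by 0.32 on the first AT-EAE array, where the median over 1940 such genes was 0.18 and 26.4% of genes differed more. On the second AT-EAE array they differed by 0.68, against a median of 0.31 over 1208 genes, with 16.9% of genes differing more. The gene's mean of 0.30 on the second AT-EAE array therefore rested on spot 2. The mean of -0.24 on the first AT-EAE array came mostly from spot 1.

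Cxcl12 spot 1 read -0.29 on the first AT-EAE array and 0.21 on the second AT-EAE array, on opposite sides of the array medians as deposited. These are -1.56 SDs and 0.76 SDs from the medians. On the first control array spot 3 read -0.22 and spot 4 read -0.19. They differed by 0.03, and 91.0% of genes with 2 measured spots differed more there. Spots 3 and 4 were at -1.02 and -0.88 SDs from the median.

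**Figure D2:**
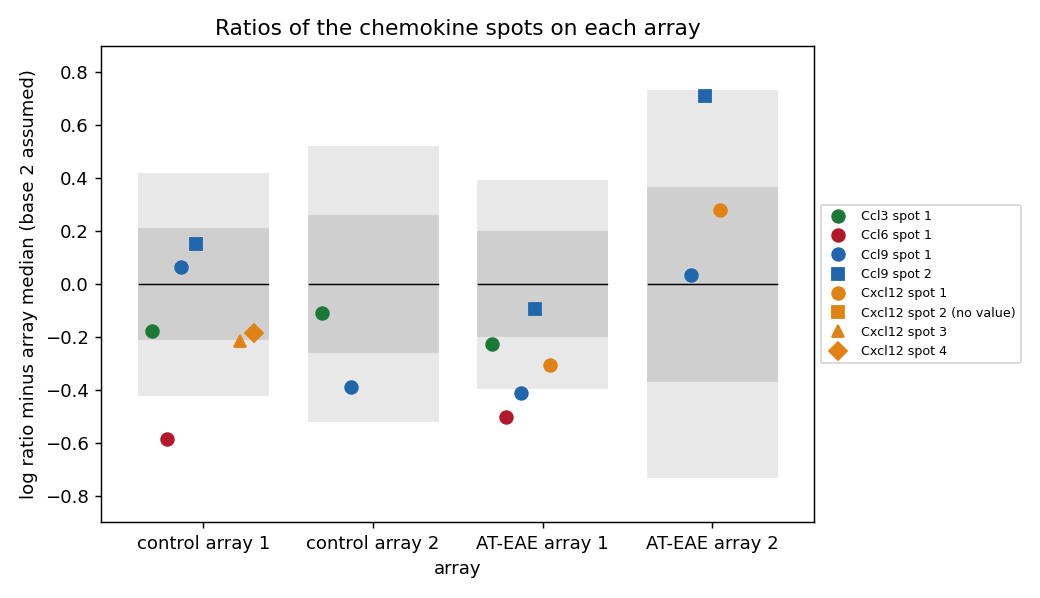
Points are the log ratios of single spots minus the array's median (base 2 assumed), by array, with colour for the gene and shape for the spot. Dark and light bands span 1 and 2 SDs over all spots of the array. Ccl6 lies below the light band on both arrays where it has a value, as does Ccl9 spot 1 on the first AT-EAE array. All 5 values of the first AT-EAE array lie below the median, and all 3 of the second AT-EAE array lie above it.

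Across the spots, the measured values of each AT-EAE array lay on 1 side of its median. As deposited, on the first AT-EAE array all 5 measured spots lay below the array median, between -0.49 and -0.08. On the second AT-EAE array all 3 lay above it, between -0.04 and 0.64, where the array median was -0.07. The sides would be the same if the channels of 1 of these arrays ran the other way, so the arrays cannot be called alike or opposite. In control, 4 of 6 spots lay below on the first array and 2 of 2 on the second. By the definition of a median, an even split is the level over all spots, and the first AT-EAE array was the array on which these genes had been noticed. Spots more than 2 SDs from the median numbered 1 on the first control array (Ccl6), where 7.68% of all spots did so. They numbered 0 on the second control array, where 7.98% did, 2 on the first AT-EAE array (Ccl6 and Ccl9 spot 1), where 9.77% did, and 0 on the second AT-EAE array, where 6.66% did.

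As deposited, the 3 spots with a value on both AT-EAE arrays were higher on the second than on the first after centring. The arrays hold separate pairs of pools and have no order. The difference of centred ratios, second minus first, was 0.81 for Ccl9 spot 2, 0.58 for Cxcl12 spot 1 and 0.45 for Ccl9 spot 1. Over 10459 spots the median absolute difference was 0.26. Of these spots, 5.48%, 14.4% and 24.9% differed more, in the order of the 3 spots. With the sign of the second array turned, the differences were -0.62, 0.03 and 0.37, against a median of 0.30, and 19.5%, 95.2% and 41.1% of spots differed more. The sizes therefore depend on the unknown channel order, most of all for Cxcl12. In control, Ccl3 differed by 0.07 and Ccl9 spot 1 by -0.45 on the same scale, against a median of 0.22 over 18146 spots. Turned, these were 0.29 and 0.32, against a median of 0.24.

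The fit of each spot over the arrays called none of these chemokines. It takes the channels to run the same way on every array, which is not given. Turning the sign of 1 array gave Ccl6 mean ratios from -0.54 to 0.05 and differences between groups from -1.08 to 1.08, and none of the 4 testable spots passed under any of the 4 turns. The mean ratio of a spot over the arrays, with the groups weighted equally, was tested against 0 with limma, and 17 of 15661 spots passed at an adjusted p of 0.05, or 0.109%. The mean ratio was -0.54 ± 0.16 (standard error, SE) for Ccl6, with a limma p of 0.0103 before and 0.274 after Benjamini-Hochberg adjustment. Ccl6 had 1 value in each group, so its error came wholly from the other spots. It was -0.18 ± 0.13 (SE) for Ccl3, -0.19 ± 0.12 for Ccl9 spot 1 and 0.21 ± 0.17 for Ccl9 spot 2, with adjusted limma p of 0.640, 0.586 and 0.663. Of the 8 spots 4 could be tested and 0 passed, and 1 of 4 had an unadjusted p under 0.05, as did 11.4% of all spots tested. Without the first AT-EAE array, Ccl9 spot 1 was at -0.10 and spot 2 at 0.39, with adjusted limma p of 0.742 and 0.126. In that fit 7.53% of spots passed, and Ccl3 and Ccl6 had no AT-EAE value left. The ratios that remained were also known when the genes were chosen, so that fit is not independent of the choice.

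The ratio between channels also did not pass the test of a difference between AT-EAE and control arrays for any of the 4 testable spots. Over all spots 4 of 15661 passed, or 0.0255%. The difference, AT-EAE minus control, was -0.07 ± 0.27 (SE) for Ccl3, 0.09 ± 0.32 for Ccl6, -0.06 ± 0.24 for Ccl9 spot 1 and 0.13 ± 0.34 for Ccl9 spot 2. Each had an adjusted limma p of 1.00, and 0 of the 4 had an unadjusted p under 0.05, against 3.48% of all spots tested. These errors are wide, and the numbers compare ratios between pools, not chemokine levels. The spread behind these p-values is little that of the spot itself, since Ccl6 left 0 residual degrees of freedom, Ccl3 and Ccl9 spot 2 left 1 each, and Ccl9 spot 1 left 2.

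The other chemokine ligands give the setting. The platform held 16 ligand genes on 24 spots, and 11 of these genes were measured on 1 or more arrays. Counts of ligand genes with a value were 10 on the first control array, 8 on the second control array, 10 on the first AT-EAE array and 8 on the second AT-EAE array. The 10 of the first control array were the same genes as the 10 of the first AT-EAE array. Over all genes of the platform the shares with a value were 86.2%, 80.1%, 72.4% and 54.9%, against 62.5%, 50.0%, 62.5% and 50.0% for ligand genes. Ccl4, a close relative of Ccl3, the monocyte attractant Ccl12, the interferon-induced T cell attractant Cxcl9, the platelet chemokine Pf4 and Cxcl17 had no value on any array. The platelet chemokine Ppbp had 1 value, -0.62 on the second AT-EAE array.

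Of the ligands with values on all 4 arrays, Xcl1, which acts on Xcr1 of dendritic cells, was below 0 on every array. Control values were -0.41 and -0.06, and AT-EAE values were -0.21 and -0.37. Ccl27a, known from skin, was at -0.18 and -0.07 in the control cords against -0.18 and -0.43 in the AT-EAE cords. The neuronal membrane chemokine Cx3cl1, a ligand of microglial Cx3cr1, was negative on the second array of each group, with 0.13 and -0.10 for control against 0.10 and -0.20 for AT-EAE. Ccl22, a ligand of Ccr4, was at -0.08 and -0.11 for control against 0.04 and -0.16 for AT-EAE. The eosinophil attractant Ccl11 was at -0.07 and 0.22 for control against 0.03 and -0.15 for AT-EAE. Cxcl14 read -0.10 and -0.34 in control and -0.05 on the first AT-EAE array.

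On the first AT-EAE array, the 4 genes described here lay lower than the other ligands. The list median relative to all genes was -0.20 with them, over 10 genes, and -0.02 over the other 6. The 4 genes ran from -0.50 to -0.23. The other 6 were split, from -0.22 to 0.09 with 3 below, so the lowest of them lay next to the 4 genes. On the second AT-EAE array the others went the opposite way, with a median of -0.21 over 6 genes, all 6 below, against 0.33 for Ccl9 and Cxcl12. On the control arrays the list was at -0.13 and -0.11, and the other ligands were at -0.08 and -0.09. Since the 4 genes were chosen for their place on the first AT-EAE array, this split is a description. Among 12 testable ligand spots limma called 0 in either direction for the mean ratio, with 2 of 12 at an unadjusted p under 0.05, against 11.4% of all spots. It called 0 for the difference between groups, with 0 under 0.05, against 3.48% of all spots.

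Receptors of these ligands were poorly covered. Ccr1 was not analysed here, and the 6 receptor genes with a spot were Ackr1, Ackr3, Ackr4, Ccr2, Ccr7 and Cxcr4. Cxcr4, the signalling receptor of Cxcl12, had no value on any array, nor did Ccr2, Ccr7 or Ackr1. Ackr3, which scavenges Cxcl12, read 0.24 on the first control array and 0.14 on the second control array, with no value in AT-EAE. Ackr4, which scavenges other CC chemokines, read -0.62 on the first control array and 0.01 on the first AT-EAE array. Its 2 spots had 3 values, so 1 of these ratios averages 2 spots and the other rests on 1. The 2 ratios of Ackr4 are therefore not on the same spots. The 1 receptor spot that could be tested was not called by limma in either comparison, and its unadjusted p was not under 0.05 in either.

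Markers of the cells that make CC chemokines were also low on the first AT-EAE array. Of 12 microglia and macrophage markers on the platform, 11 had a value there and 10 of 11 lay below the median over genes, at a list median of -0.28 and a range from -1.02 to 0.03. As deposited, the Fc receptor gene Fcgr3 was at -0.55, Mpeg1 of the perforin family at -0.40, the complement gene C1qa at -0.23 and the macrophage surface gene Adgre1 at 0.04. Lyz2, the macrophage lysozyme, and Cd68, both named after their values were seen, were lowest at -1.01 and -0.76. On the other arrays the markers were spread around the median. The list was at 0.05 on the first control array (4 of 10 below), 0.01 on the second control array (4 of 11 below) and -0.04 on the second AT-EAE array (5 of 9 below). The defining marker Itgam had values on all 4 arrays and Cd68 on 2 of them. The part of macrophage content in the chemokine ratios was not tested.

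**Figure D3:**
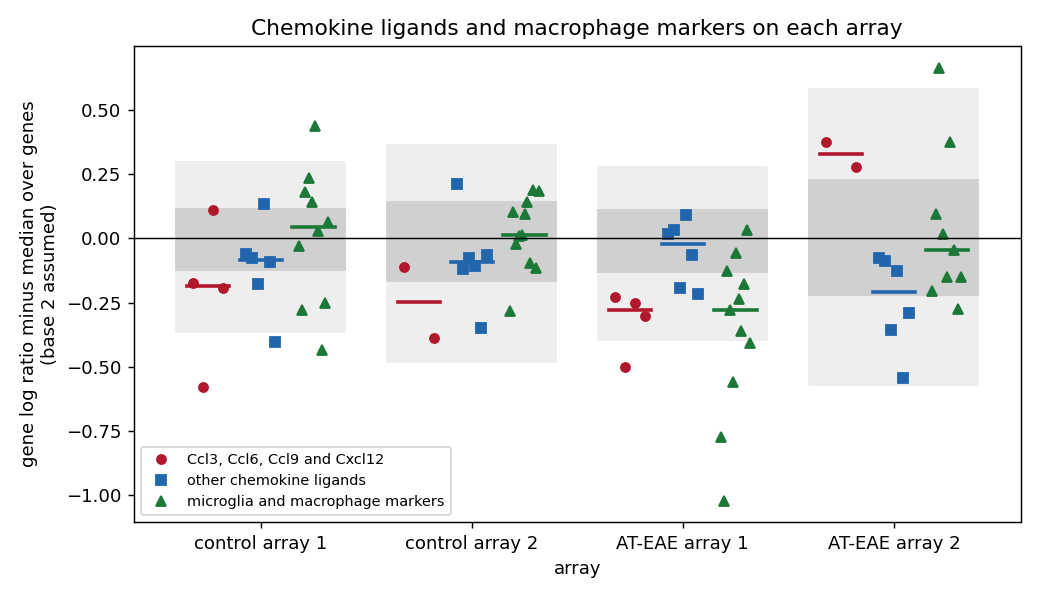
Points are gene log ratios minus the median over genes of the array (base 2 assumed), and short bars are the medians of the 3 sets. Dark bands run from percentile 25 to 75 of all genes and light bands from percentile 5 to 95. On the first AT-EAE array the 4 chemokines (median -0.28) and the macrophage markers (median -0.28) lie low. The other ligands there have a median of -0.02 but are split, from -0.22 to 0.09, with 3 of 6 below 0. On the second AT-EAE array the 2 measured chemokines have a median of 0.33 and the macrophage markers one of -0.04.

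Markers of other cells were as follows on the first AT-EAE array, as differences from the median over genes. The 2 measured oligodendrocyte markers were at a median of -0.39, the 5 meninges and fibroblast markers at -0.15, the 4 neuron markers at -0.13, the 3 neutrophil markers at -0.09, the 5 astrocyte markers at -0.05 and the 2 vessel markers at 0.09. On the second AT-EAE array the vessel and astrocyte markers were highest, at 0.19 and 0.21, and the neutrophil markers were lowest at -0.49. All 5 neuron, 5 astrocyte and 2 oligodendrocyte markers with a spot had values on both control arrays, so defining markers of the labelled tissue were measured. For T cells the platform offered 1 marker, Cd4, without a value on any array.

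The genes nearest to Ccl9 in pattern were Clstn1, Fn1 and Nedd4. Likeness was the distance over the 4 arrays between gene ratios, each array centred and divided by its SD over genes. Ccl9 was the only 1 of the 4 chemokine genes with a value on every array. The distances were 0.17, 0.25 and 0.39, against a median of 3.17 over the 5429 genes compared. As the smallest distances they lie below the median by choice, and whether they are unusually small was not tested. Clstn1, a neuronal calsyntenin, read 0.10, -0.40, -0.25 and 0.26 on the control arrays and the AT-EAE arrays. Fn1, the matrix protein fibronectin, read 0.12, -0.39, -0.28 and 0.26 in that order, and the ubiquitin ligase Nedd4 read 0.12, -0.30, -0.24 and 0.33. The Ccl9 gene ratios were 0.11, -0.38, -0.24 and 0.30. Their spots disagree on the second AT-EAE array, so the likeness belongs to the average of the spots.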

How the data were processed

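The deposited values, 1 per spot and array, were taken as the authors' log2 ratios of normalized signals of the 2 channels. They are signed and centred near 0, and the labels speak of comparing normalized green and red signals. Base 2 is an assumption. Software, spot filter, background correction and normalization are steps not given in the sources used here. Levels in AT-EAE against control cord were not analysed here, since no array carries both.

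Spots with 1 gene were named from the platform annotation, with symbols updated through gene identifiers to GRCm38.p6 for 18267 of 18511 spots. A gene's ratio averages its measured spots. limma 3.58.1 (R 4.3.3) was fitted over all spots with a value in both groups, with Benjamini-Hochberg adjustment at 0.05. On simulated data with independent noise it recovered 200 of 200 shifted spots in each comparison. All shifted spots had values on all 4 arrays, and of the testable chemokine spots only Ccl9 spot 1 had that many. Recovery was not simulated for spots with fewer values or for smaller shifts, so it gives no power for the chemokine spots. The shifts were 1 for the mean ratio and 2 for the difference, and 11 and 13 unshifted spots of 15661 tested were called. Python 3.11.15, pandas 2.3.3, Biopython 1.88 and matplotlib 3.10.9 were used. Columns of no sample numbered 0. Correlations of arrays over all spots ran from -0.01 to 0.35.

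The genes, the lists of ligands, receptors and cell markers, and the 2-SD limit were chosen with earlier results of these data known. Named genes were all spots of the 4 genes, all ligands and receptors with a value, some cell markers, and the 3 nearest genes. Of the markers, Lyz2 and Cd68 were named for their values. Alternatives were centring, spots on all 4 arrays, spots with 1 gene, robust eBayes, medians over spots, leaving out each array and, added after seeing the data, turning its sign.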

Additional observations from a re-analysis of the deposited data

How the results depend on the processing

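No chemokine spot of the 4 genes passed limma's test in any setting run. In planned settings that kept all 4 arrays, adjusted limma p for the mean ratio of Ccl6 ranged from 0.259 to 0.320. Ccl6 had no value on array 2 of either group. Leaving out either of those left its mean ratio at -0.54 and changed only the error taken from other spots. Without array 1 of either group Ccl6 could not be tested. In the planned settings with all 4 arrays, adjusted limma p for the mean ratio ranged from 0.611 to 0.646 for Ccl3. It ranged from 0.542 to 0.623 for Ccl9 spot 1 and from 0.654 to 0.670 for Ccl9 spot 2. Fits without 1 array left 1 array in a group and are not in these ranges, for Ccl6 also. The AT-EAE minus control difference of Ccl9 changed sign with the array left out, from -0.28 to 0.17 for spot 1 and from -0.23 to 0.49 for spot 2. Over all spots, 17 calls for the mean ratio became 7 with centred arrays and 4 among spots with values on all 4 arrays. The 4 calls for the difference became 0 in limma among spots on all 4 arrays, where 366 had an unadjusted p under 0.05. Leaving out 1 array gave 80 to 800 calls for the mean ratio and 12 to 346 for the difference, highest without AT-EAE array 1. Turning the sign of 1 array, chosen after seeing the data, gave 10, 8, 3 and 3 calls for the mean ratio (control arrays 1 and 2, AT-EAE arrays 1 and 2) and 8, 10, 3 and 3 for the difference. Adjusted limma p of the 4 testable spots was then at least 0.853. The cause was not tested.

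The SD between the 2 arrays of a group was 0.017 for control and 0.068 for AT-EAE medians of the ligand list. Each rests on 2 signed medians and would differ if the channels of 1 array ran the other way. Moves larger than this loose limit, with signs as deposited, were as follows. On control array 1 it went from -0.13 to -0.0616 among genes on all 4 arrays and to -0.0839 without the 4 genes. On control array 2 it went from -0.11 to -0.0896 over spots. On AT-EAE array 1 it went from -0.20 to -0.13 over spots, -0.0901 among genes on all 4 arrays and -0.0225 without the 4 genes. On AT-EAE array 2 it went from -0.11 to -0.21 without the 4 genes. Ratios of single genes moved by less than the SD between spots under every alternative, but with spot 1 alone Ccl9 on AT-EAE array 2 was -0.04 in place of 0.30. No paired analysis was possible because extract numbers only name pools within a group, and no array carries both groups. Signal over background was not analysed here, and 2 arrays a group limit the precision.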
